A study of Drosophila melanogaster with 3 samples.

Results

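Cuticle protein genes were examined in a ChIP-seq map of the Drosophila melanogaster protein CG10209. They were taken by symbol from the protein-coding genes of the annotation, without use of any measured value: symbols that start with Cpr and a digit (70 genes), with Lcp (15), with Ccp84 (7) or with Twdl (25). This gave 117 of 13968 coding genes. The chromatin came from whole embryos of mixed sex aged 0 to 24 h, of a transgenic line that stably expresses CG10209 with GFP at its C-terminus, and was precipitated with an antibody against GFP after sonication to 200 to 800 bp. There were 3 biological replicates in 1 group, with no second condition, and transcript levels were not analysed here. The embryos were pooled over all tissues and stages, so binding in few cells and weak binding in many cells cannot be told apart.

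Insect cuticle is a layered matrix of chitin fibres and structural proteins that the epidermis, the tracheae, the foregut and the hindgut secrete on their outer face. Most Cpr proteins, the larval cuticle proteins (Lcp) and the proteins of the Ccp84 cluster carry the Rebers-Riddiford consensus, a chitin-binding domain. Tweedle proteins (Twdl) are a separate cuticle family in which mutations can change body shape. Such genes are switched on in epidermal cells in waves before each moult, the earliest of them late in embryogenesis when the larval cuticle is laid down, and many lie in tandem clusters that arose by duplication.

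The authors deposited 30000 regions for each replicate and 30000 for the pooled replicates, a number that takes in background. They also deposited 6307 IDR peaks, the regions that passed an irreproducible discovery rate filter on how well their order holds from one replicate to another. Each region has a signal value and a −log10 q assigned by the authors, and ranks below count from the highest signal of a list. The share of regions with a −log10 q of 2 or more (q of 0.01) was 14.3% in replicate 1, 30.6% in replicate 2 and 30.1% in replicate 3. Read depth is unknown, as the lists hold no read counts.

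Core promoters of cuticle protein genes are shown first, because most of them share an element that few peak-bearing promoters have. The stretches run from 60 bases before the start to 20 bases from the start on, in the direction of the gene, on genome Release 6 (dm6). Capitals mark the TATA box word TATAAA and the Initiator words (TCA, then G or T, then T, then T or C). Cpr67Fb and Cpr65Av had an IDR peak upstream, Cpr65Ea, TwdlP and Lcp65Ad had a weaker pooled region, and Ccp84Aa had no region in any list.
Cpr67Fb, chr3L:10894113-10894192, plus strand: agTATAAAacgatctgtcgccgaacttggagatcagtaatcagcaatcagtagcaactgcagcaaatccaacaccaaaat
Cpr65Av, chr3L:6139955-6140034, minus strand: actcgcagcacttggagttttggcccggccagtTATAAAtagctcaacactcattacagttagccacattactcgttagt
Cpr65Ea, chr3L:7086589-7086668, minus strand: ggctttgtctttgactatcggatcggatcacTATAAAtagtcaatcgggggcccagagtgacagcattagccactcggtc
TwdlP, chr3R:26621345-26621424, minus strand: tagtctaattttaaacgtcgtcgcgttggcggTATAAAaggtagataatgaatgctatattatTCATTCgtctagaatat
Lcp65Ad, chr3L:6143335-6143414, plus strand: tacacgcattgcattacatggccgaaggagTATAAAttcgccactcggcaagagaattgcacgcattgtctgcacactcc
Ccp84Aa, chr3R:6704024-6704103, plus strand: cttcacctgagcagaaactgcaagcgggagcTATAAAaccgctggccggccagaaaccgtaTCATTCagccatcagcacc

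In Cpr65Av, Cpr65Ea, TwdlP, Lcp65Ad and Ccp84Aa the TATA word began 27 to 30 bp before the start. In Cpr67Fb it began 58 bp before the start, outside the usual distance. The summit windows of the regions that the results turn on follow, 100 bases either side of the summit in the direction of the gene. Capitals mark TATAAA or its reverse complement.
Cpr67Fb, IDR peak, chr3L:10893660-10893860, plus strand: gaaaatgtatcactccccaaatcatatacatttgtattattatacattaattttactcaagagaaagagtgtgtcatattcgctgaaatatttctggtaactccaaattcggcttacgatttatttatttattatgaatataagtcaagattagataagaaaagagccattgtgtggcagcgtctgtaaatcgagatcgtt
Cpr65Av, IDR peak, chr3L:6140251-6140451, minus strand: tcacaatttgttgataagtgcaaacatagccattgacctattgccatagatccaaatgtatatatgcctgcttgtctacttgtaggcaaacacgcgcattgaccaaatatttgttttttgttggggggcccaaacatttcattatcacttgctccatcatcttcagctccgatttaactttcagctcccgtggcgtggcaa
Cpr73D, IDR peak in an intron, chr3L:16956825-16957025, minus strand: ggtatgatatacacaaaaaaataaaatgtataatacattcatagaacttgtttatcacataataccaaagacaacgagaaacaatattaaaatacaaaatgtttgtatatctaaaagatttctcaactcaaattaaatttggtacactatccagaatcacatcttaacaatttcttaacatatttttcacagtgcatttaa
Cpr65Ea, pooled region, chr3L:7086694-7086894, minus strand: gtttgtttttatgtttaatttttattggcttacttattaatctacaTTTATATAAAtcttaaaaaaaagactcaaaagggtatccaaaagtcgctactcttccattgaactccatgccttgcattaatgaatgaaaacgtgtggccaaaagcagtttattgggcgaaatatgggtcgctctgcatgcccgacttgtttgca

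Adenine and thymine made up 69.2% of the Cpr67Fb window, 58.2% of the Cpr65Av window, 76.1% of the Cpr73D window and 65.2% of the Cpr65Ea window, against a median of 65.2% over the 6307 IDR summit windows. Neither of the promoter peaks held the DRE word TATCGATA or the word CACTGAGA, which occurred in 2.54% and 3.69% of all IDR summit windows.

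IDR peaks were nearly missing from cuticle protein promoters. Within 500 bp of a start, 2 of the 117 genes had a peak (1.71%, interval 0.208 to 6.04), against 21.5% of all coding genes. Both are Cpr genes on 3L. The peak of Cpr67Fb (FBgn0036110, 3L, 10894173 to 10894693) lay 413 bp upstream, and that of Cpr65Av (FBgn0052405, 3L, 6139223 to 6139974) 377 bp upstream, so both fell in the outer part of the window. Among coding genes with 1 annotated start, as 107 of the cuticle protein genes have, 16% had a peak, against 2 of those 107 (1.87%), and 35.2% had a pooled region, against 16 of those 107 (15%). Chemoreceptor genes, which are also tissue-restricted and often clustered, had 1 of 179 (0.559%). Genes with RpL or RpS symbols and sta, which encode ribosomal proteins, had 72 of 93 (77.4%).

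**Figure D1:**
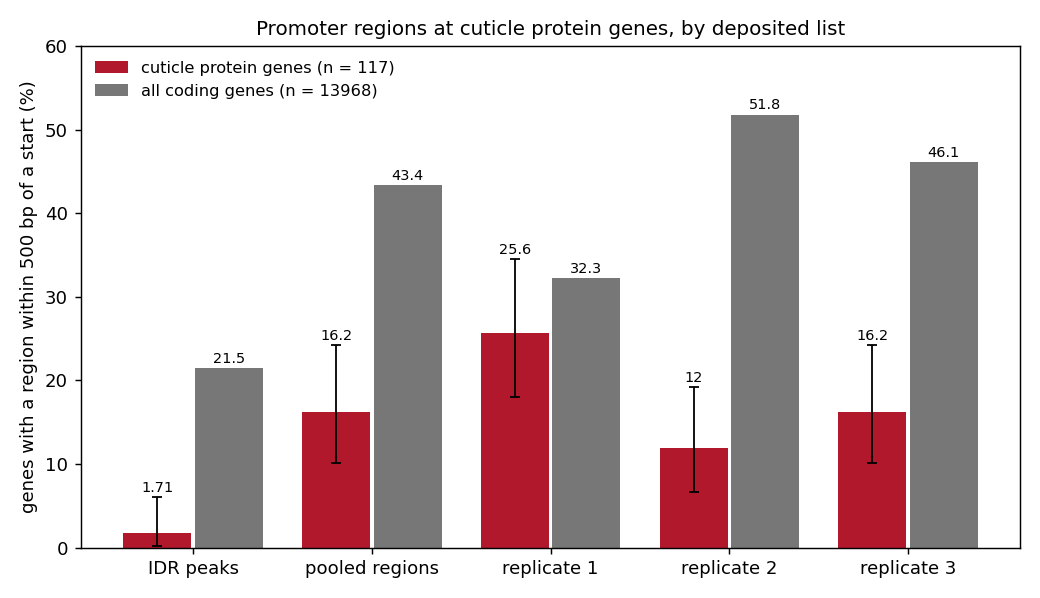
Share of genes (%) with a region summit within 500 bp of a start, in each deposited list, for the 117 cuticle protein genes (red, with exact 95% intervals) and all 13968 coding genes (grey). The cuticle share is 1.71% against 21.5% for IDR peaks, and comes closest to the grey bar in replicate 1, at 25.6% against 32.3%.

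The promoter region of Cpr67Fb had a signal of 71.5 in replicate 1, 82.9 in replicate 2 and 114 in replicate 3, at ranks 4933, 4600 and 3888. Its pooled signal was 253, rank 4618 of the pooled list, and its summit lay in an exon of the antisense RNA gene asRNA:CR45171. Its −log10 q was 1.59 in replicate 1, 3.98 in replicate 2 and 4.11 in replicate 3. These are regions with a summit inside the 500 bp window. Of the regions that overlap the IDR peak wherever their summit lies, the highest had a signal of 122 in replicate 1 (rank 2672, −log10 q 3.25), 93.1 in replicate 2 (rank 3839) and 114 in replicate 3. A second IDR peak with a signal of 320 lay 612 bp upstream of the same start, just outside the window, and overlapped the first. No start of another gene was nearer to either summit.

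The Cpr65Av peak was weaker and less even. Its signal was 53.1 in replicate 1 (rank 7128), 50.8 in replicate 2 (rank 9340) and 109.5 in replicate 3 (rank 4086). Its pooled signal of 214 stood close to the lowest IDR peak, at 194.7. The −log10 q passed 2 in replicate 3 alone, at 4.11, with 0.904 in replicate 1 and 1.94 in replicate 2. When a replicate was left out, peaks were kept only if one of the 6307 highest regions of both other replicates overlapped them. The Cpr65Av ranks in replicates 1 and 2 lay past that cutoff, so its peak was lost whichever replicate was left out. This loss cannot show that the peak depends on any 1 replicate. The Cpr67Fb peak was kept each time, so 1 of 117 genes had a promoter peak under this rule.

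In gene bodies, a peak lay in 1 of 117 cuticle protein genes (0.855%), against 14.1% of all coding genes, whose median length of 2165 bp exceeds the 983 bp of cuticle protein genes. Among genes with 1 annotated start it was 0 of 107, against 6.03% of coding genes. The gene with a peak was Cpr73D (FBgn0036680, 3L, 16939100 to 16957689), at 18590 bp far longer than the median member. Its stronger peak, 764 bp inside its start, had signals of 114, 129 and 194 in replicates 1, 2 and 3 and ranks of 2875, 2269 and 1813. The summit lay in an intron of Cpr73D and also in an intron of Ogdh, which encodes a subunit of the oxoglutarate dehydrogenase complex, and the nearest start was that of Ogdh, 514 bp away. A weaker peak in another Cpr73D intron, 1448 bp from an internal start, had signals of 83.9, 71.2 and 80.3 in replicates 1, 2 and 3.

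The remaining member with a peak within 1000 bp was Cpr65Ay. That peak, at 3L, 6157474 to 6157917, with a signal of 271, lay 934 bp downstream of the Cpr65Ay start but 319 bp from the start of CG13297. Of coding genes on arms with peaks, 498 of 13945 had their nearest peak more than 500 and up to 1000 bp away, against 2 of the 117 cuticle protein genes.

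Weaker regions were listed at more members, but also less often than at other genes. In the pooled list, 19 of 117 had a promoter region (16.2%, interval 10.1 to 24.2), against 43.4% of all coding genes. Of the 19, 13 were Cpr, 3 Lcp and 3 Twdl genes, and 0 were Ccp84 genes. Their median signal was 77.0 and their median rank 18613, against 193 and 6370 over the 6056 coding genes with such a region. Summits lay upstream of the start in 10 and downstream in 9, and in all 19 the nearest annotated start was the member's own. This is common among other genes too. Counted by nearest start alone, 36.3% of all coding genes had a pooled promoter region, against 43.4% without that limit. With a −log10 q of 2 or more, 2 members had a pooled promoter region, Cpr67Fb and Cpr65Av, against 24.6% of all coding genes.

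Just below the IDR peaks came Cpr65Ea and Cpr72Eb. At Cpr65Ea (FBgn0035735) the promoter region had a signal of 56.7 in replicate 1, 42.1 in replicate 2 and 61.6 in replicate 3, and of 148 in the pooled list, rank 8668. The summit position relative to the start was -176 bp in replicate 1, -419 bp in replicate 2 and -278 bp in replicate 3, so the replicates did not share a summit. At Cpr72Eb (FBgn0036618) it was 43.7 in replicate 1 and 52.6 in replicate 3, with no promoter region in replicate 2, and 145 in the pooled list. The other 8 of the 12 highest, Cpr78Cc, TwdlP, Cpr47Ed, Lcp65Ad, Cpr67Fa2, TwdlG, Cpr78Cb and Cpr49Ac, had pooled signals of 93.9 down to 72.6 and ranks of 14482 to 19987, all with a −log10 q under 2.

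**Figure D2:**
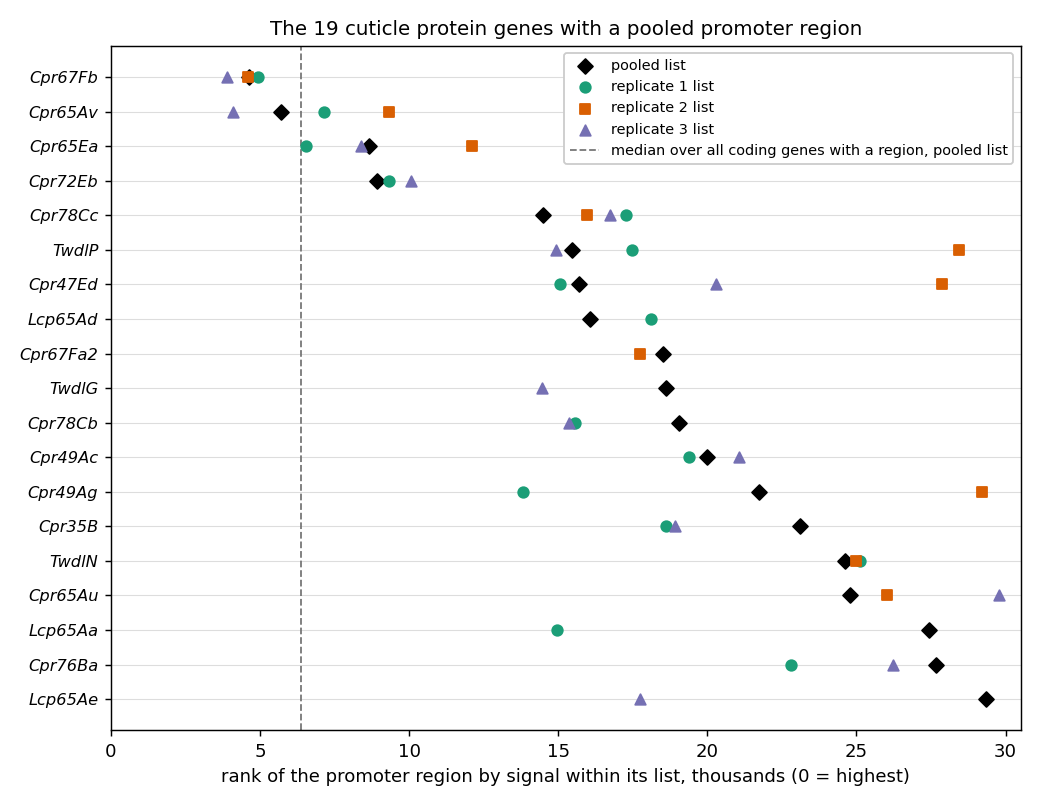
Rank by signal, in units of 1000 (0 is the highest), of the promoter region of the 19 cuticle protein genes with a pooled promoter region, in the pooled list (diamonds) and the lists of replicate 1 (circles), 2 (squares) and 3 (triangles); a missing symbol means no promoter region in that list. The dashed line is the median pooled rank over all coding genes with a region (6370): the pooled diamonds of Cpr67Fb and Cpr65Av lie left of it and the other 17 diamonds right of it, while Cpr65Av has its replicate 1 and 2 symbols on the right (7128 and 9340).

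Replicates agreed on few members. A promoter region was listed in all 3 replicates for 7 of 117 genes (5.98%), against 22.9% of all coding genes: Cpr67Fb, Cpr65Av, Cpr65Ea, Cpr47Ed, Cpr78Cc, TwdlP and Cpr73D. At Cpr73D these regions had ranks of 13236, 10149 and 18088 in replicates 1, 2 and 3 and no pooled counterpart. The replicates did not always share a summit. At Cpr78Cc the summits lay at -311, 396 and -293 bp from the start in replicates 1, 2 and 3. At TwdlP they lay at -258, -464 and -258 bp. A region in none of the 3 replicates was found for 77 members (65.8%), against 36.5% of all coding genes. A region in 1 replicate alone was listed for 24 members (20.5%), against 19.8% of all coding genes. Of these 24, 15 had it in replicate 1, 3 in replicate 2 and 6 in replicate 3, and the 15 had ranks of 12356 to 29110. Replicate 1 listed a promoter region at 30 members (25.6%), against 32.3% of all coding genes. Replicate 2 listed one at 14 (12%), against 51.8%, and replicate 3 at 19 (16.2%), against 46.1%. With a −log10 q of 2 or more, the counts were 0 in replicate 1 (interval up to 3.10%), 2 in replicate 2 and 3 in replicate 3, against 14.9%, 30.2% and 26.7% of all coding genes. In replicate 2 those were Cpr67Fb and Lcp9 (signal 55.4, rank 8316), and Lcp9 had no region in any other list.

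Gene-body regions were listed for 19 members in the pooled list (16.2%), against 33.7% of all coding genes. They were listed for 29 members in replicate 1, against 32.6% of all coding genes, for 13 in replicate 2, against 41.8%, and for 13 in replicate 3, against 35.3%. A promoter or gene-body region stood at 27 members in the pooled list (23.1%), against 51.2% of all coding genes. The same count was 42 in replicate 1 (35.9%, against 45.3%), 18 in replicate 2 (against 58.7%) and 22 in replicate 3 (against 53.5%). In each of these lists the share of cuticle protein genes was below that of all coding genes, with the smallest gap in replicate 1. Against coding genes with 1 annotated start, that gap nearly closed. In replicate 1 a promoter region was listed for 27 of the 107 cuticle protein genes with 1 start (25.2%), against 26.2% of such coding genes, a gene-body region for 23.4%, against 24.2%, and either for 35.5%, against 38.4%. In the other replicates it did not close: the promoter shares were 12.1% against 43.7% in replicate 2 and 14.0% against 37.7% in replicate 3.

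Over all 5 lists, 40 of 117 cuticle protein genes had a promoter region (34.2%), against 64% of all coding genes. Promoter and gene body together, 54 of 117 cuticle protein genes had a region (46.2%), against 73.7% of all coding genes. The 63 without any region included 34 of 70 Cpr, 9 of 15 Lcp, 6 of 7 Ccp84 and 14 of 25 Twdl genes. Words of 32 bases that occur elsewhere on the chromosome arms filled at least 50% of the 1 kb around the start in 4 members: Lcp65Ab1, Lcp65Ab2, Cpr65Ax1 and Cpr65Ax2. These 4 had no promoter region in any list. In 91 members the share of such words was 0. Without the 4 members at or over 50%, 2 of 113 had an IDR promoter peak (1.77%) and 19 had a pooled promoter region (16.8%). A promoter region in any list was found for 40 of the 113 (35.4%). With all 117 members these shares were 1.71%, 16.2% and 34.2%. The word length was a choice and the read length is unknown, so it is not known which of these stretches reads could be placed in. The part of repeated stretches in the counts was not tested further.

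Of the 117 genes, 85 fell in 15 clusters that cover 0.241 Mb. The largest is the Lcp65Ag3 to Cpr65Az cluster of 17 members in 31.2 kb on 3L (6130386 to 6161589), followed by TwdlM to TwdlD with 12 members on 3R (26619118 to 26641054). There were 7 IDR peaks in these spans, or 29.1 per Mb (interval 11.7 to 59.9), against 45.9 per Mb over the chromosome arms, a rate that lies inside the interval. The 15 clusters had 220 pooled regions per Mb, background included, against 218 over the arms. In the IDR and pooled lists, peaks and regions in these spans were thus not shown to be sparser than elsewhere on the arms. The replicate lists differed. Against the same 218 per Mb, replicate 1 had 303 (interval 238 to 381), replicate 2 had 137 (94.3 to 192) and replicate 3 had 162 (115.1 to 221). Only the interval of replicate 2 lay below the rate over the arms. The Ccp84Ag to Ccp84Aa cluster on 3R and the TwdlX to Twdlalpha cluster on X held neither an IDR peak nor a pooled region, but both are short spans and no spans of like length were counted.

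The 7 peaks were spread over 4 clusters, and member starts were the nearest starts to 4 of them. In Lcp65Ag3 to Cpr65Az, 3 peaks lay at the Cpr65Av promoter, at the start of lncRNA:CR45421 (signal 333, 48 bp from that start) and near CG13297. In Cpr67Fa1 to Cpr67Fb, both peaks lay upstream of Cpr67Fb. In Cpr65Ea to Cpr65Ec the peak (signal 268) lay 2199 bp upstream of Cpr65Ec and 2218 bp upstream of Cpr65Eb, on the opposite strand. Its signals were 68.0, 81.9 and 112 in replicates 1, 2 and 3. In Cpr47Ea to Cpr47Eg the peak (signal 379) lay nearest to TpnC47D, a troponin C gene inside the cluster, at 608 bp.

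**Figure D3:**
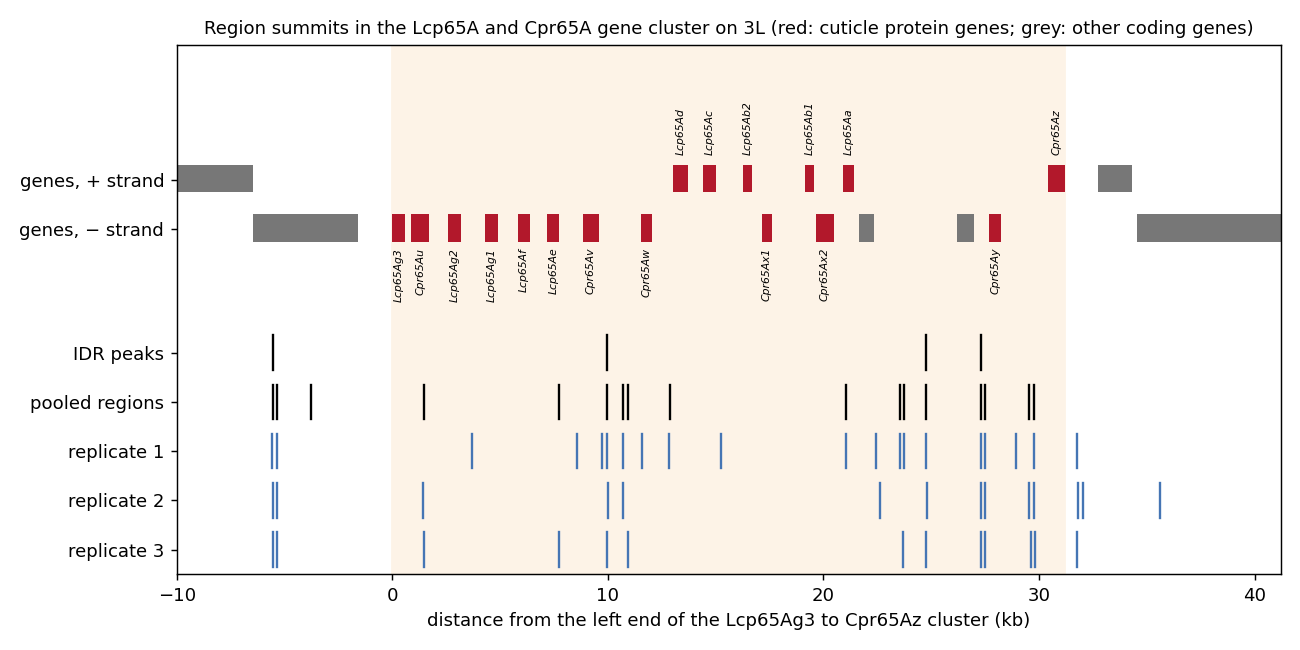
Map of the Lcp65Ag3 to Cpr65Az cluster on 3L (shaded) with 10 kb either side; the x axis is the distance in kb from the cluster's left end, boxes are coding genes by strand (red for cuticle protein genes, grey for others) and each tick is a region summit in 1 list. The IDR peak at 9.97 kb stands upstream of Cpr65Av, between Lcp65Ae and Lcp65Ad. The rest of the 3 IDR peaks stand in the right part, at 24.8 and 27.3 kb. The 14 pooled regions and 17 replicate 1 regions are more widely spread.

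Cuticle protein genes also lay far from the nearest peak. The median distance from a start to the closest IDR summit was 15.9 kb (quartiles 5.77 and 22.5 kb), against 5.77 kb (0.987 and 16.1 kb) for all coding genes off Y, which had no peaks. Distances over 10 kb were found for 74 of 117 (63.2%), against 36.8% of the coding genes and 41.3% of those with 1 start, whose median was 7.15 kb. Chemoreceptor genes were about as far from peaks, with a median of 15.5 kb and 60.9% over 10 kb. Medians were 13.3 kb for Cpr, 6.16 kb for Lcp, 22.8 kb for Ccp84 and 20.8 kb for Twdl genes, and members of a cluster share their distances. Outside clusters the median was 15 kb over 32 genes, and 0 of these had a promoter peak. The farthest member was Cpr92F on 3R, 74.9 kb from a peak whose nearest start was that of bon. The 117 genes shared 56 nearest peaks, and 6 of these had a member start as their nearest start.

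**Figure D4:**
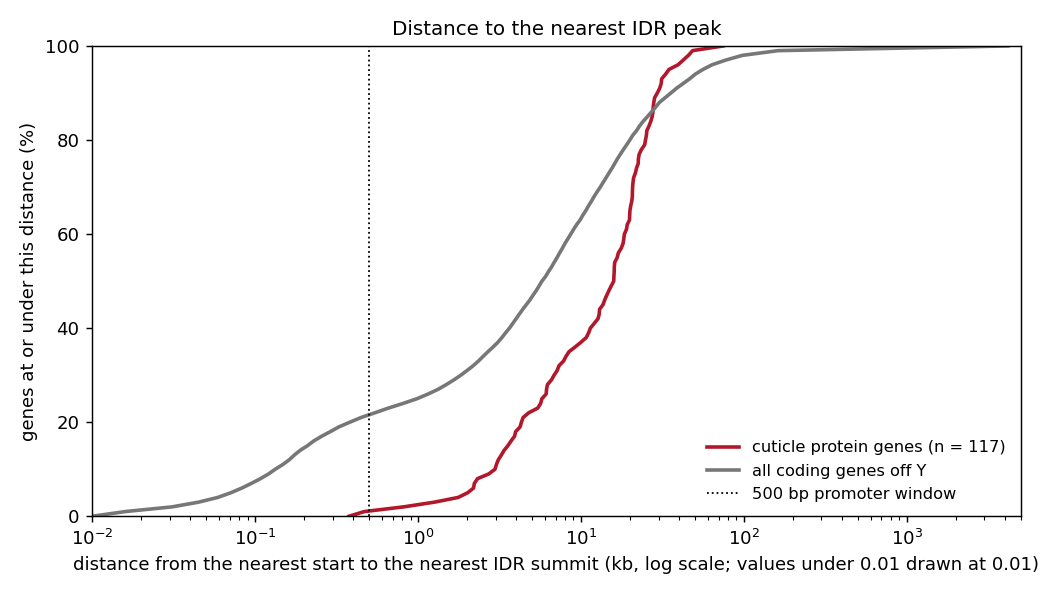
Cumulative share of genes (%) by distance from their nearest start to the nearest IDR summit, in kb on a log scale, for the 117 cuticle protein genes (red) and 13945 coding genes (grey); the dotted line marks 500 bp. The red curve leaves 0 near the dotted line, where the grey curve has already reached 21.5%, and the medians are 15.9 and 5.77 kb.

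The promoters themselves shared features that the choice by symbol did not use. TATAAA on the gene strand began 45 to 15 bp before the most upstream start in 71 of 117 cuticle protein genes (60.7%), against 9.13% of all coding genes and 3.53% of the 3004 coding genes with an IDR promoter peak. It was present in 39 of 70 Cpr, 12 of 15 Lcp, 5 of 7 Ccp84 and 15 of 25 Twdl genes, so all 4 families had it in more than 50% of members. This placement was chosen after the values were seen. Anywhere from 250 bp before to 50 bp after the start, and on either strand, TATAAA was found in 74.4% of cuticle promoters and 45.8% of all coding promoters.

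The DRE, a word of housekeeping promoters bound by Dref, was found in 1 cuticle promoter (0.855%), against 9.36% of all coding promoters and 12.9% of those with a peak. CACTGAGA, the Grainyhead word AACCGGTT and the FTZ-F1 word CAAGGTCA were found in 0 of 117, against 1.05%, 0.752% and 0.494% of all coding promoters, shares at which 117 promoters would hold few or none. Initiator words on the gene strand (47.0% against 43.8%) and GAGAG on either strand (30.8% against 29.7%) were at like shares. Adenine and thymine made up a median of 56% of bases in cuticle promoters and 62% in all coding promoters. All words in this paragraph but the Initiator words were searched on both strands. A match is not shown to be a bound site, and longer or looser forms of these sites were not searched.

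**Figure D5:**
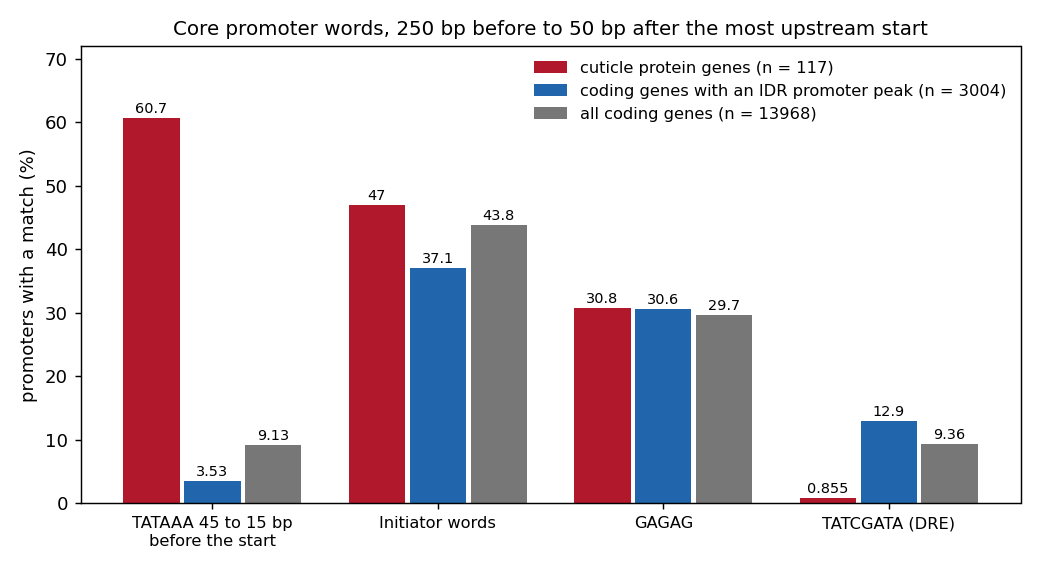
Share of promoters (%) that hold TATAAA 45 to 15 bp before the start, an Initiator word, GAGAG or the DRE, for cuticle protein genes (red), coding genes with an IDR promoter peak (blue) and all coding genes (grey). TATAAA stands at 60.7% in cuticle promoters, against 3.53% and 9.13%, and the DRE at 0.855%, against 12.9% and 9.36%.

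For other genes of cuticle formation, most lists were too short to set apart from all coding genes. Cuticle proteins outside the 4 symbol groups, among them resilin, Edg78E, Edg84A, Pcp and Acp65Aa, had a promoter peak in 0 of 12 cases (interval up to 26.5%) and a pooled promoter region in 0 of 12, against 21.5% and 43.4% of all coding genes. Genes of chitin synthesis, chitin modification and chitin-binding matrix proteins had a peak in 3 of 30 (10%, interval 2.11 to 26.5) and a pooled promoter region in 43.3%, near the share of all coding genes. The peaks stood at Cht7 (chitinase, signal 881), Gfat2 (hexosamine synthesis, 522) and Chs2 (chitin synthase, 286), of which the Chs2 peak lay nearer the start of lncRNA:CR45757. Tanning and bursicon genes had 2 of 15 (13.3%, interval 1.66 to 40.5) and a pooled region in 33.3%, with peaks at Pu (pterin synthesis, signal 263, nearer the start of CG4286) and ETHR (receptor for ecdysis triggering hormone, 212). Zona pellucida proteins of the apical matrix had 2 of 10 (20%, interval 2.52 to 55.6) and a pooled region in 40%, with peaks at tyn (359) and qsm (327).

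Regulators of cuticle genes and moulting had promoter peaks in 4 of 15 cases (26.7%, interval 7.79 to 55.1), a share near the 21.5% of all coding genes. They had a pooled promoter region in 80%, against 43.4%. The number of annotated starts was not matched here, and the starts of these regulators were not counted. Over coding genes with 1 start the pooled share was 35.2%, below the 43.4% of all, so the share varies with the number of starts. The 35.2% is not a matched reference for the regulators. The peaks were at Eip75B (ecdysone-induced nuclear receptor, signal 1134), usp (partner of the ecdysone receptor, 458), Kr-h1 (juvenile hormone response factor, 275) and grh (Grainyhead, an epidermal factor, 206). In their gene bodies 11 of 15 had a peak, against 14.1% of all coding genes, and gene length was not matched in this comparison. The median distance from their starts to a peak was 1.71 kb, against 15.9 kb for the cuticle protein genes.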

How the data were processed

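The authors deposited narrowPeak lists of regions with dm6 coordinates. Per the text files deposited with them, regions were called on each replicate and on the pooled replicates against 1 control alignment. No aligner, peak caller or IDR cutoff could be stated, as each is not given in the sources used here. Read depth is unknown. The signal and the −log10 q of each region are the authors' deposited values, and signal was compared only within a list, since its range differs between lists. The peak lists with dm3 coordinates were not used here.

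Genes came from Ensembl release 115 on the 7 chromosome arms, with transposable elements left out. Sequence came from the RefSeq copy of genome Release 6. Coordinates are 1-based. A region counts for a promoter when its summit lies within 500 bp of any annotated start of the gene, and for a gene body when its summit lies between the gene's ends. A cluster is a run of at least 3 members separated by gaps of up to 20 kb. Intervals are exact 95% intervals (Clopper-Pearson for shares, Poisson for rates) and cover counting error only. Members are neighbours and can share regions, so the intervals treat as independent what is not. The members and the gene lists were chosen with earlier results of these data known, so no test was made of a list. Each count stands beside the same count over all coding genes. Genes named are members with an IDR peak in or near them, the 12 members with the highest pooled promoter regions, members with a region in all 3 replicates, the ends of clusters, and up to 4 genes with peaks on each further list. Other genes named were picked after their values were seen. The matching of regions to genes was tested on simulated regions. Python 3.11.15, numpy 2.4.6 and scipy 1.17.1 were used.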

Additional observations from a re-analysis of the deposited data

How the results depend on the processing

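The promoter counts moved with the width of the window. With summits within 250 bp of a start, 0 members had an IDR peak and 8 had a pooled region, against 16.8% and 34.4% of all coding genes. With 1000 bp, 4 had an IDR peak and 35 a pooled region, against 25.1% and 50.9%. Among the regions at or above the median signal of each list, 0 members had an IDR promoter peak (13.5% of all coding genes), 5 had a pooled region at the promoter (33.8%) and 2 had one in the gene body (23.1%). There the median distance to a peak was 21.0 kb, against 11.3 kb for all coding genes. The clusters held 1 of the 3153 IDR peaks left, or 4.15 per Mb. The rate over the arms was not recomputed for this shorter list, so the rate given for all IDR peaks is not a like comparison. With a −log10 q of 2 or more, 2 members had a pooled promoter region (24.6% of all coding genes) and 1 a pooled gene-body region (16.4%).

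Leaving out a replicate kept the regions that one of the 6307 highest regions of both other replicates overlapped, because IDR was not rerun. Without replicates 1, 2 and 3 in turn, this left 4925, 4799 and 4359 IDR peaks and 5998, 5863 and 5310 of the 30000 pooled regions. No count was made under this rule with all replicates. The effect of the cutoff cannot be told apart from that of the left-out replicate. Without each replicate in turn, 1 member had an IDR promoter peak, 1 had a pooled promoter region and 1 a pooled gene-body region in every case. The shares of all coding genes were then 14.3 to 17.7%, 14.7 to 18.2% and 10.9 to 12.5% for these counts. Of the IDR promoter peaks, that of Cpr67Fb remained and that of Cpr65Av was lost each time. The Cpr65Av peak ranked 7128 in replicate 1 and 9340 in replicate 2, so the cutoff of 6307 removed it whichever replicate was left out. Median distances were 15.9 to 16.0 kb for the cuticle protein genes, against 7.64, 9.17 and 10.2 kb for all coding genes without replicates 1, 2 and 3, so the gap was smaller than with all replicates (15.9 against 5.77 kb). Cluster rates were 20.8 to 24.9 peaks per Mb. The rate over the arms was not recomputed for these shorter lists, so a fall in the cluster rate is not shown to be particular to the clusters. Of 47 recomputed counts, distances and rates, 27 stayed within 1.5 times the reported count or within the interval of the reported value. Among them were all those with the nearest start alone, with the most upstream start alone, with any overlap, and with other cluster gaps. The 27 also include the IDR results with a −log10 q of 2 or more, which could not change because all 6307 IDR peaks pass that limit. Alternatives with dm3 peaks were not run. No paired analysis was possible because there is 1 group.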

Other observations

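The near absence of peaks at cuticle protein promoters was set beside promoters of the same core type, a comparison chosen after the values were seen. Of the 71 cuticle protein genes with TATAAA placed 45 to 15 bp before the start, 1 had an IDR promoter peak (1.41%). Of the 1204 other coding genes with TATAAA so placed, 105 had one (8.72%). Among genes without it, the counts were 1 of 46 cuticle protein genes (2.17%) and 2897 of 12647 other coding genes (22.9%). In the pooled list the shares with a promoter region were 18.3% of cuticle protein genes and 25.8% of other coding genes with TATAAA so placed, and 13% and 45.3% of those without it. These differences were not tested.

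In the replicate 1 list the cuticle gene clusters held 303 regions per Mb (interval 238 to 381), against 218 over the chromosome arms. Replicate 2 had 137 per Mb in the clusters (94.3 to 192) and replicate 3 had 162 (115.1 to 221), against the same 218. With a −log10 q of 2 or more required, the clusters held 3 regions in replicate 1, 6 in replicate 2 and 7 in replicate 3. Their rates were then 0.399, 0.373 and 0.443 of the rate over the arms, in the same order. The intervals per Mb were 9.14 to 54.2 in replicate 2, against 66.8 over the arms, and 11.7 to 59.9 in replicate 3, against 65.5. Both lay below the arms' rate, while the interval of replicate 1 (2.57 to 36.4) held the 31.2 over the arms. The part of region calling in the higher rate of replicate 1 was not tested.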
